A study of Homo sapiens with 8 samples.

Results

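Long noncoding RNA genes with LINC symbols were examined in DU145, an established epithelial prostate carcinoma line derived from a brain metastasis. The set holds every gene of the deposited count table whose symbol starts with LINC and whose raw counts, summed over all 8 libraries, came to at least 80. This gave 202 of the 32066 genes in the table, out of 819 LINC symbols at any count. RNA was sequenced from 4 libraries of cells labelled as control and 4 libraries of cells labelled as overexpressing SOX11, a transcription factor of the SOX family with a DNA-binding HMG box. Both groups share the same line, medium and passage routine, per the labels' protocols. The labels do not give the vector, the duration of expression, whether the SOX11 cells are 1 clone or a pool, or whether the libraries of a group came from separate cultures. The p-values below therefore measure only the spread between these libraries, which may be technical.

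LINC symbols are placeholder names for long intergenic noncoding RNA genes, given where no better known function or neighbour supplies a name. Such transcripts are mostly made by RNA polymerase II, often spliced and polyadenylated, and as a class they are scarcer and more restricted to single cell types than messenger RNAs. Some act at neighbouring genes on the same chromosome, others bind proteins or microRNAs elsewhere in the cell, and for most no role is known. In prostate carcinoma, several long noncoding RNAs are known as markers of disease.

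The GENCODE 29 annotation held 194 of the 202 genes, of which 158 were typed as lincRNA, 20 as processed transcript and 10 as antisense. One, LINC02693, was typed as protein coding, and another, LINC02210, as a transcribed unitary pseudogene. Exons of 25 overlapped an exon of another gene on the same strand, and exons of 66 overlapped one on either strand, where reads can be credited to either gene. The median exonic length was 2639 bases, and 28 genes had a single exon.

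The 300 bases around the start site, 250 before and 50 after, are shown first for 4 of the LINC genes that the results turn on. LINC01322 had the largest fold change of all 202, LINC00472 was among those that rose, and LINC00641 and LINC00923 were the called genes whose RefSeq windows hold a SOX core. Each runs 5′ to 3′ in the direction of the gene, from RefSeq on GRCh38.p14. Capitals mark the SOX HMG-box core letters ACAAAG or ACAATG, or their reverse complements CTTTGT and CATTGT, and a sequence without capitals holds none of them. The windows are chr3:165206698-165206997 on the plus strand for LINC01322, chr6:71420696-71420995 on the minus strand for LINC00472, chr14:21206851-21207150 on the minus strand for LINC00641 and chr15:97874380-97874679 on the minus strand for LINC00923.
LINC01322: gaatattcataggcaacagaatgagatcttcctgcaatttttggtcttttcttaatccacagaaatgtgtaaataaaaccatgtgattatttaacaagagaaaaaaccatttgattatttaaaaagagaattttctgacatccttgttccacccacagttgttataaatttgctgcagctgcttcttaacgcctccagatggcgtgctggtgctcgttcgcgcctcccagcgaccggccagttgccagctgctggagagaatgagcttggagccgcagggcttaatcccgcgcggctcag
LINC00472: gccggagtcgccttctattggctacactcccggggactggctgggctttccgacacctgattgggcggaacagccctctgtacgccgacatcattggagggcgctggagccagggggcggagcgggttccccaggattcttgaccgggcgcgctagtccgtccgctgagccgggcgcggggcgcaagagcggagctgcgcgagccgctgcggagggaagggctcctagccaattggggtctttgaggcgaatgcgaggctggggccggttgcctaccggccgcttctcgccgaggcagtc
LINC00641: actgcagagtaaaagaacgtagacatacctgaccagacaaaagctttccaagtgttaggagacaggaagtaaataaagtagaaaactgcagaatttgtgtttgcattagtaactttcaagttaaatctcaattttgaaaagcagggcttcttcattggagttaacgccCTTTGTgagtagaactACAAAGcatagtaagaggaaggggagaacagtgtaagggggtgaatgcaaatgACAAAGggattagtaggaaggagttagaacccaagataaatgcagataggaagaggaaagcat
LINC00923: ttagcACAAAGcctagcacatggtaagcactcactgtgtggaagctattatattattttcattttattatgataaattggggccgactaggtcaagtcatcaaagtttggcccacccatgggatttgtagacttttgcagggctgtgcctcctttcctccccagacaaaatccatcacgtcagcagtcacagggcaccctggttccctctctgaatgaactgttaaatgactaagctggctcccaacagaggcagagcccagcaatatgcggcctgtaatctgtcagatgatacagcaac
In the LINC00641 window the cores start at positions -82, -66 and -13, counted from the start site, and in the LINC00923 window the core starts at -245. RefSeq promoters were found for 143 of the 202 genes, 165 promoters in all. Either core occurred in 35 of these (21.2%), against 8593 of 35116 promoters of the whole table (24.5%). ACAAAG occurred in 17.0% of the LINC promoters and 16.1% of all promoters, and ACAATG in 6.67% and 10.8%. Of the 15 genes called higher, 9 had a RefSeq promoter, and 2 of their 10 promoters held a core, both of them start sites of LINC00641. Of the 10 genes called lower, 7 had one, and 1 of these 7 promoters held a core, that of LINC00923. The other called genes, among them LINC00707, LINC01963 and LINC00648, had no RefSeq promoter and were not searched. Median GC content was 60.3% in the LINC promoters and 58.7% in all promoters. A match describes the letters of a window and not a bound site.

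Total counts ran from 14641250 to 18706095 per control library and from 15309037 to 16740516 per SOX11 library. The SOX11 gene was at 0 counts in every control library, and each SOX11 library held between 303 and 317 of them. Levels are in CPM, a gene's count relative to the total of its library after scaling by the trimmed mean of M-values (TMM), unless a value is said to be per length. The 5 epithelial markers EPCAM, KRT8, KRT18, KRT19 and CDH1 were all present, with a summed level of 1494 to 1758 CPM in controls and 1198 to 1204 CPM in SOX11 libraries. KRT8, KRT18 and KRT19 were called lower. EPCAM (log2 fold change 0.10, edgeR adjusted p = 0.142) and CDH1 (log2 fold change -0.11, edgeR adjusted p = 0.660) were not called. Of 7 fibroblast markers, DCN and LUM were not analysed here, and the rest summed to 3.18 to 5.35 CPM in controls and 6.61 to 8.81 CPM in SOX11 libraries, with COL1A1 and SFRP4 called higher. SFRP4 had 4, 5, 12 and 1 counts in the controls and 20, 17, 19 and 16 with SOX11. With a minimum count of 10, it passed the low-count filter only through the SOX11 group, where it was high. Its call carries that limit. The part of these markers in the LINC results was not tested. SOX11 replicate 1 stood apart from the other 7 libraries. It held 41 genes with at least 10 counts and at least 10 times the count of any other library, among them KLK2 (161 counts), FOLH1 (107) and KLK3 (95), genes of luminal prostate cells that DU145 is known to lack. These made up 0.0104% of its counts, and no other library held such a gene. None of the 202 LINC genes was among the 41. LINC00839, a LINC gene under the sum threshold, was among them, with 12 counts against 0 elsewhere. All 202 had counts in every library, so this rule could not show a smaller addition to any of them. Counts and calls that were lost without SOX11 replicate 1 are given beside the results.

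Mean levels of the 202 LINC genes ran from 0.629 to 178 CPM with a median of 2.26, against a median of 20.2 over all 15665 genes tested. All 202 had at least 1 count in each of the 8 libraries. Counts were concentrated in few genes. The most abundant one took 11.95% of all LINC counts, the top 5 took 31.6% and the top 10 took 44.7%. The whole set made up 0.1442% to 0.1480% of the counts in each control library and 0.1503% to 0.1533% in each SOX11 library, so that the groups did not overlap. In bulk RNA, fewer cells that express a gene and less of its RNA per cell cannot be told apart, here and for every gene below.

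The sum that chose the genes ran over both groups and does not use the contrast, except that LINC00707 and LINC01322 were chosen with their change known. The smallest sum inside the threshold was 81, for LINC03067 and LINC01433, and the largest under it was 79, for LINC01600, LINC01315, LINC01119 and LINC00942. LINC01433 failed the low-count filter, which left 201 tested. For 6 genes, a level in both groups equal to that of the lower group would have left the sum under 80, and 2 of these, LINC02019 and LINC02582, were called.

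Of the 201 LINC genes tested, 25 (12.4%) were called at an adjusted p below 0.05 by edgeR's quasi-likelihood test, 15 higher (7.46%) and 10 lower (4.98%) with SOX11. Without LINC00707 and LINC01322 the count was 23 of 199 (11.6%). Over all genes tested, 20.0% were called, 10.3% higher and 9.67% lower, so the LINC share was below the background. The count was 17 (5 lower) without SOX11 replicate 1, 16 (5 lower) without control replicate 3 and 15 (6 lower) with DESeq2. The share moved with the count. Among genes with a sum from 80 up to 400 counts, 2 of 118 LINC genes (1.69%) were called, against 8.47% of all genes in that range. These were LINC02019 and LINC02582, whose sums reached 80 only through their higher group. Both are also among the 25 and the 23. From 400 up to 2000 counts the share called was 16 of 63 (25.4%) against 18.8%, and from 2000 counts 7 of 20 (35.0%) against 25.5%. Without the pair chosen by their change, the last 2 shares were 15 of 62 (24.2%) and 6 of 19 (31.6%). The differences between these shares were not tested.

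**Figure D1:**
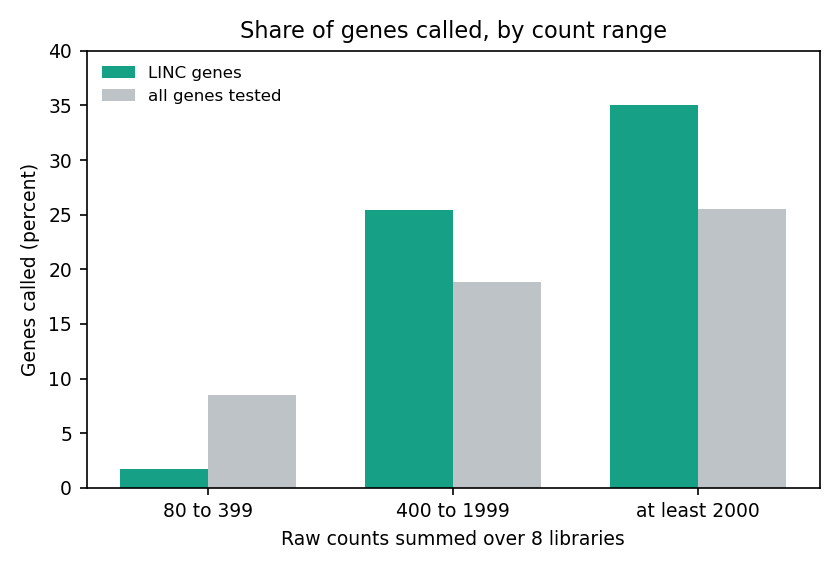
Percent of genes called at an adjusted p below 0.05 (y axis) by raw count summed over 8 libraries (x axis), for LINC genes (green) and all genes tested (grey). The LINC bar is the shorter one below 400 counts (1.69% against 8.47%) and the taller one in both higher ranges. The LINC genes called below 400 counts were LINC02019 and LINC02582, whose sums reached the threshold only through their higher group.

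Most of the LINC genes moved little. Log2 fold changes, SOX11 minus control, ran from -1.94 to 0.86, with a median of 0.03 beside 0.00 over all genes tested. They were positive for 112 and negative for 89. The median size of the change was 0.18 on the log2 scale, beside 0.11 over all genes, and the median standard error (SE) was 0.18 beside 0.07. Of the 25 called, 19 changed by less than 1.5-fold and 1, LINC01322, by more than 2-fold. The median size among the 25 was 1.31-fold, beside 1.18-fold over all genes called. In 20 of the called genes and in 5 others (LINC01060, LINC01088, LINC01341, LINC02593 and LINC03011) the 4 SOX11 libraries lay wholly above or below the 4 controls. That is 12.4% of the LINC genes, against 21.1% of all genes tested.

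**Figure D2:**
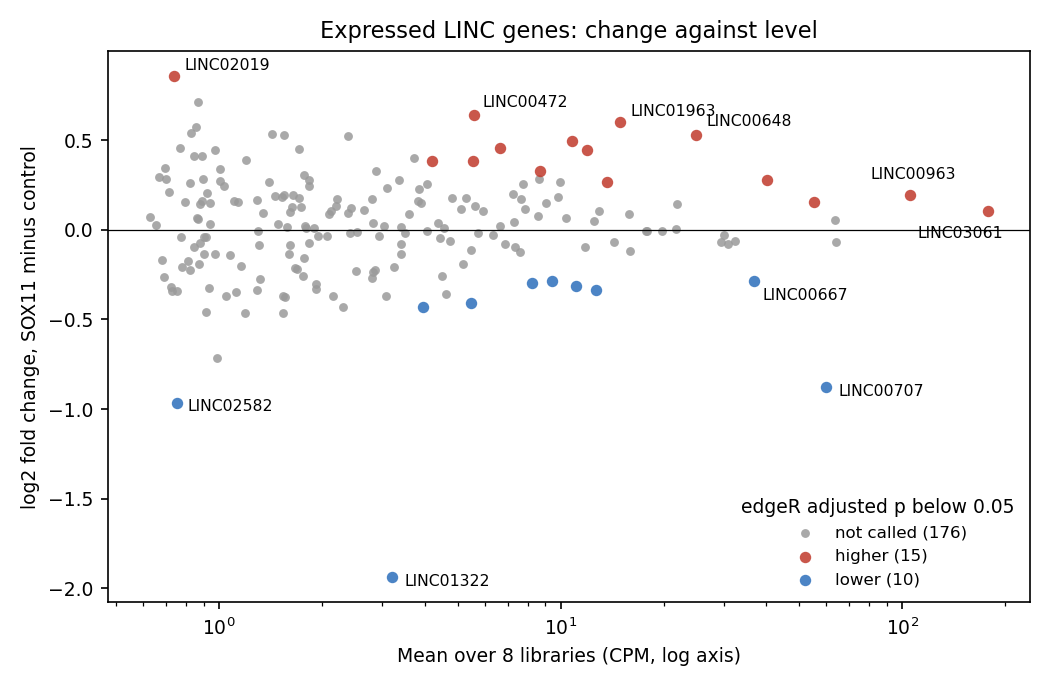
Log2 fold change, SOX11 minus control (y axis), against mean CPM over 8 libraries (x axis, log scale) for the 201 LINC genes tested; red points were called higher, blue points lower and grey points were not called. Of the 15 genes called higher, all but LINC02019 lie above the median level of 2.26 CPM, and LINC01322 and LINC00707 lie lowest among the genes above 1 CPM.

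LINC01322 and LINC00707 are described without a test, since they were named for their change. LINC01322 (chr3:165206960-165655423 on GRCh38, plus strand, a spliced lincRNA of up to 6 exons) stood at 4.72, 5.24, 5.28 and 5.12 CPM in the control libraries and at 1.48, 1.48, 1.15 and 1.17 CPM in the SOX11 libraries. Every SOX11 library held less than every control, with raw counts of 74 to 97 against 18 to 25. The means were 5.09 ± 0.256 and 1.32 ± 0.182 CPM (SD, n = 4), 3.86-fold lower with SOX11. Its nearest protein-coding start is that of SLITRK3, a transmembrane protein of synapses, which lies 9851 bases away on the opposite strand. SLITRK3 had group means of 0.02 CPM and 0.05 CPM and was not tested.

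LINC00707 (chr10:6779549-6879450, plus strand, up to 7 exons) was far more abundant. It stood at 70.8, 79.9, 77.0 and 81.2 CPM in controls and at 39.2, 40.6, 43.9 and 44.5 CPM with SOX11. The groups were apart by more than their spread, with means of 77.2 ± 4.62 and 42.0 ± 2.53 CPM (SD, n = 4), 1.84-fold lower with SOX11. It shares exons on its strand with 3 unnamed Ensembl genes. The nearest protein-coding start, 199248 bases away, belongs to PRKCQ, protein kinase C theta, whose log2 fold change was 0.06 (edgeR adjusted p = 0.712).

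Among the genes that rose, LINC01963 and LINC00648 had the smallest adjusted p-values. LINC01963 (chr2:216217045-216220192, plus strand, 1 exon) stood at 11.86, 11.66, 11.93 and 11.97 CPM in controls and at 18.6, 17.8, 17.5 and 17.9 CPM with SOX11. Its control libraries were nearly equal and all SOX11 libraries lay above them, for a log2 fold change of 0.60 (SE 0.07, edgeR adjusted p = 2.2e-07). The start of XRCC5, the Ku80 subunit of DNA end joining, lies 109581 bases away on the same strand and had a log2 fold change of -0.01 (edgeR adjusted p = 0.870). LINC00648 (chr14:47764954-47795092, minus strand) stood at 20.5, 20.2, 20.8 and 20.1 CPM in controls and at 29.7, 32.4, 28.7 and 27.0 CPM with SOX11. All SOX11 libraries were again above all controls, with a log2 fold change of 0.53 (SE 0.06, edgeR adjusted p = 1.47e-07). MDGA2, a cell adhesion gene whose start is 120138 bases away, was too scarce to test, at 0.19 and 0.06 CPM.

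LINC00472, LINC02298, LINC02904 and LINC01089 rose by 0.45 to 0.64 on the log2 scale. LINC00472 (chr6:71344344-71420769, minus strand), reported as tumour suppressive in breast carcinoma, stood at 3.89, 4.54, 4.11 and 4.84 CPM in controls and at 7.02, 5.96, 6.86 and 7.28 CPM with SOX11. The groups did not overlap and the log2 fold change was 0.64 (SE 0.12, edgeR adjusted p = 0.000173). Its exons overlap those of an unnamed gene on the same strand. LINC02298 (chr14:105093609-105099004, plus strand) went from 8.80, 8.15, 10.2 and 8.85 CPM to 13.18, 12.52, 12.87 and 12.02 CPM. Again no libraries of the groups overlapped, and its log2 fold change was 0.50 (SE 0.09, edgeR adjusted p = 8.94e-05).

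LINC02904 (chr8:143039209-143059942, plus strand) had 5.35 to 5.93 CPM in the 4 controls and 6.79 to 8.38 CPM in the 4 SOX11 libraries. These ranges were apart, with a log2 fold change of 0.46 (SE 0.11, edgeR adjusted p = 0.00291). LINC01089 (chr12:121795267-121803906, minus strand), also called LIMT, had 8.69 to 11.03 CPM in controls and 13.1 to 15.5 CPM with SOX11, for a log2 fold change of 0.45 (SE 0.09, edgeR adjusted p = 0.000413). Its exons overlap those of RHOF on the same strand, whose log2 fold change was -0.03. The chromatin methyltransferase gene SETD1B starts 274 bases from LINC01089 on the opposite strand, with a log2 fold change of 0.02 (edgeR adjusted p = 0.859).

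LINC00963 and LINC00205 rose by less but at high levels. LINC00963 (chr9:129483451-129513686, plus strand), first described in prostate carcinoma cells, stood at 96.1, 99.6, 103 and 94.1 CPM in controls and at 113, 115, 116 and 105 CPM with SOX11. The lowest SOX11 library was just above the highest control, with a log2 fold change of 0.19 (SE 0.04, edgeR adjusted p = 0.000608). LINC00205 (chr21:45288050-45297806, plus strand) had 50.2 to 54.2 CPM and 56.4 to 60.5 CPM, a log2 fold change of 0.16 (edgeR adjusted p = 0.0112). POFUT2, a protein O-fucosyltransferase gene that starts 152 bases away on the opposite strand, had a log2 fold change of 0.11 (edgeR adjusted p = 0.117).

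The other genes that rose without overlap of the groups were LINC02019, LINC01348, LINC02035 and LINC01270, and the calls of all 4 depended on single libraries. LINC02019 (chr3:50669989-50672048) had the largest fitted rise, a log2 fold change of 0.86 (edgeR adjusted p = 0.0416), on 6 to 10 counts per control library and 11 to 17 per SOX11 library. It passed the low-count filter only through the SOX11 group, where it was high, and its call carries that limit. Its adjusted p was 0.0804 to 0.124 without SOX11 replicate 1, 2 or 3 or control replicate 2 or 3, 0.0934 without the low-count filter and 0.0542 with a replicate block. LINC02035 had a log2 fold change of 0.38 (edgeR adjusted p = 0.0215), and 0.0569 to 0.0778 without SOX11 replicate 1 or 4 or control replicate 3 or 4. With DESeq2 its adjusted p was 0.0624. LINC01270 had 0.26 (edgeR adjusted p = 0.0212), and an adjusted p of 0.0601 to 0.0918 without SOX11 replicate 1 or 2 or control replicate 2 or 4. With DESeq2 it was 0.0537. LINC01348 had 0.38 (edgeR adjusted p = 0.0412), and its call was lost (adjusted p 0.0572 to 0.122) without any 1 library except control replicate 1. It was also lost with DESeq2 and without the low-count filter (adjusted p 0.0727 to 0.115).

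Besides the pair described above, 6 genes fell without overlap of the groups. LINC00667 (chr18:5237826-5246508, plus strand) stood at 38.9, 40.1, 41.8 and 41.2 CPM in controls and at 30.8, 36.6, 32.3 and 33.0 CPM with SOX11. Every SOX11 library was below every control, for a log2 fold change of -0.29 (SE 0.05, edgeR adjusted p = 0.000252). LINC00526, which overlaps it on the opposite strand, had a log2 fold change of -0.37 and was not called (edgeR adjusted p = 0.369). LINC02577 (chr7:106774955-106838480, plus strand) went from 14.4, 13.5, 14.7 and 14.1 CPM to 11.4, 12.4, 10.3 and 10.9 CPM. Its groups were apart, with a log2 fold change of -0.33 (SE 0.08, edgeR adjusted p = 0.00313).

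LINC00511 (chr17:72290091-72640472, minus strand), reported as raised in several carcinomas, had 11.6 to 13.4 CPM in controls and 8.91 to 10.7 CPM with SOX11, a log2 fold change of -0.31 (edgeR adjusted p = 0.00973). Without control replicate 2 its adjusted p was 0.0604. LINC00842 (chr10:46398362-46453306) had 5.16 to 6.99 CPM and 4.01 to 5.16 CPM, a log2 fold change of -0.41 (edgeR adjusted p = 0.0189). Its lowest control and highest SOX11 libraries were all but equal, and its adjusted p was 0.0526 to 0.0774 without SOX11 replicate 1 or 2 or control replicate 2 or 3.

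LINC00668 (chr18:6919496-6929966, minus strand) had 9.23 to 11.3 CPM in controls and 7.99 to 9.21 CPM with SOX11. The groups all but touched, with a log2 fold change of -0.28 (edgeR adjusted p = 0.0307), and the adjusted p was 0.0557 to 0.0988 without SOX11 replicate 1, 3 or 4 or control replicate 1 or 3. With DESeq2 it was 0.0750. LINC02582 (chr18:73324941-73349878, plus strand) had 0.761 to 1.23 CPM in controls and 0.616, 0.590, 0.668 and 0.130 CPM with SOX11, a log2 fold change of -0.96 (edgeR adjusted p = 0.0394). It passed the low-count filter only through the control group, where it was high, and its call carries that limit. Without SOX11 replicate 4, the lowest library, its log2 fold change was -0.67, and its adjusted p was 0.0528 to 0.145 without SOX11 replicate 1 or 4 or control replicate 1 or 3. Chromosome 18 carried 5 of the LINC genes, of which 3 fell and LINC00526 and LINC02864 were not called. Among all 239 genes tested there, 14.2% were called lower and the median log2 fold change was 0.00.

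**Figure D3:**
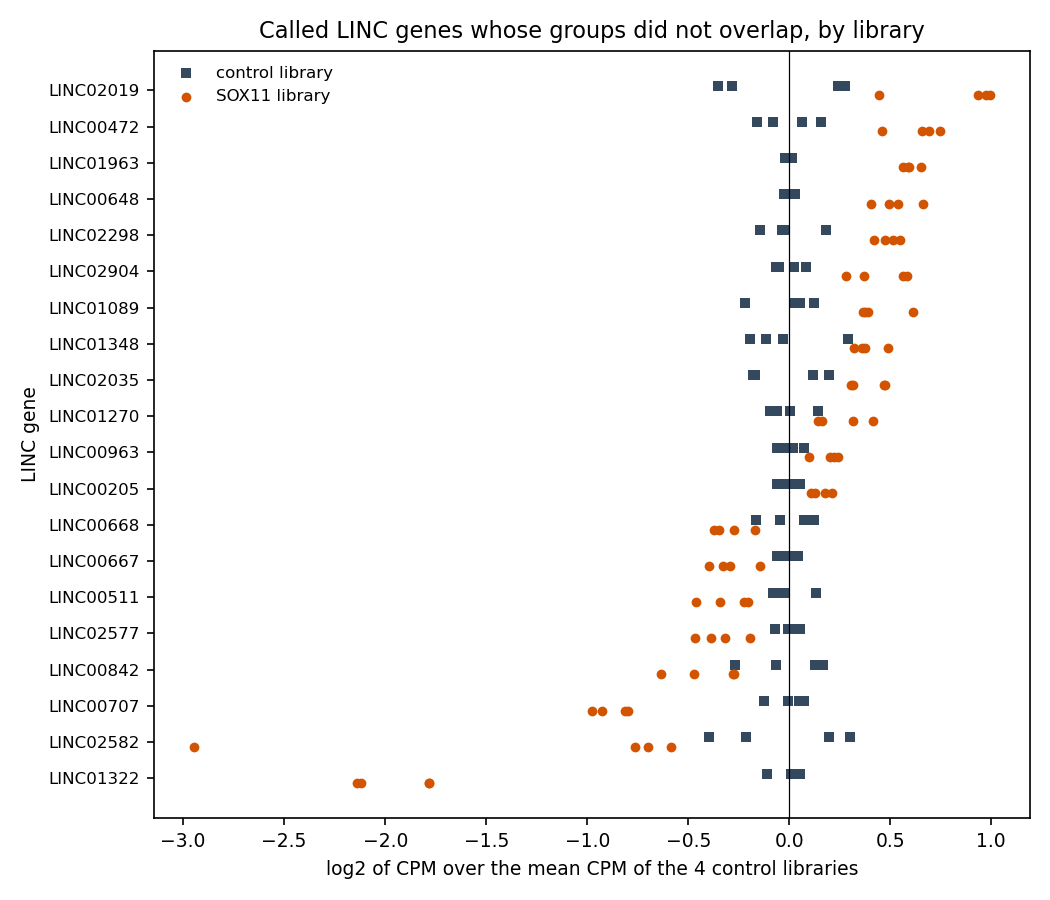
Log2 of CPM over the mean CPM of the 4 controls (x axis) in each library for the 20 called LINC genes whose groups did not overlap (y axis), with squares for control and circles for SOX11 libraries. LINC01322 and LINC00707 are set apart from their controls by a wide gap, LINC02582 has 1 SOX11 library far to the left (0.130 CPM), and in LINC01270, LINC00668 and LINC00842 the groups nearly touch.

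In 5 further called genes the libraries of the groups overlapped. These were named after their values were seen. LINC00641 (chr14:21200079-21206900, minus strand) had 31.3, 34.8, 38.2 and 40.8 CPM in controls and 43.1, 39.3, 46.9 and 46.3 CPM with SOX11, a log2 fold change of 0.28 (edgeR adjusted p = 0.00800). The overlap was of 1 library from each group, and the call held without any 1 library. LINC00174 had a log2 fold change of 0.33 (edgeR adjusted p = 0.0199). Its exons overlap those of 5 genes on its strand, some of them pseudogenes, and its adjusted p was 0.0527 to 0.0806 without SOX11 replicate 1 or 3 or control replicate 2 or 4. With DESeq2 it was 0.0506.

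LINC00923 (chr15:97572185-97874550, minus strand) had 8.23 to 10.1 CPM in controls and 6.92 to 8.50 CPM with SOX11, a log2 fold change of -0.30 (edgeR adjusted p = 0.0376). Without SOX11 replicate 1, 3 or 4 or control replicate 1 or 3 its adjusted p was 0.0827 to 0.123. It also missed the threshold with DESeq2 (adjusted p = 0.0851) and with a replicate block (adjusted p = 0.0555). LINC01357 had a log2 fold change of -0.43 (edgeR adjusted p = 0.0483), and 0.0596 to 0.189 without SOX11 replicate 1, 2 or 4 or control replicate 2, 3 or 4. With DESeq2 it was 0.105. Only 1 SOX11 library overlapped its controls. Of the 23 calls other than LINC01322 and LINC00707, 11 held without any 1 library, and 10 were lost without SOX11 replicate 1. Other libraries cost calls too. Of all 25 calls, 15 were kept without SOX11 replicate 1, 16 without control replicate 3 and 17 without control replicate 2. Leaving out any other library kept 18 to 21.

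The levels of different genes were compared per length, as reads per kilobase of exon scaled by library size (RPKM). LINC03061 (chr13:109269634-109278512) was highest at 35.0, followed by LINC00342 at 24.2, LINC03046 at 22.8, LINC00857 at 13.8, LINC01836 at 13.5 and LINC02298 at 9.20. The value of LINC03046 rests on an annotated model of only 291 bases. LINC03061 had 166, 165, 171 and 184 CPM in controls and 175, 183, 188 and 193 CPM with SOX11. Its highest control lay within the SOX11 range, and the log2 fold change of 0.11 (edgeR adjusted p = 0.0431) missed the threshold without SOX11 replicate 3 or 4 or control replicate 1, 2 or 3 (adjusted p 0.0944 to 0.159). It also missed it with DESeq2 and without the low-count filter (adjusted p 0.0667 to 0.0874). LINC00342, LINC03046, LINC00857 and LINC01836 had log2 fold changes of 0.05, 0.02, -0.03 and -0.10, with edgeR adjusted p-values of 0.413 to 0.933.

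Among genes not called, LINC02535 and LINC01088 had a fitted change of at least 1.5-fold, with 113 to 125 counts over all libraries. LINC02535 had 0.891 to 1.73 CPM in controls and 0.369 to 1.10 CPM with SOX11, a log2 fold change of -0.72 (edgeR adjusted p = 0.0874). LINC01088 had 0.274 to 0.918 CPM and 0.975 to 1.29 CPM, which did not overlap, and a log2 fold change of 0.71 (edgeR adjusted p = 0.0918). In all, 14 genes, both of these among them, had an unadjusted p below 0.05 without being called.

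Called LINC genes had higher median levels and longer median exonic lengths than those not called, with exceptions such as LINC02019 and LINC02582 in level and LINC01357 in length. Median levels were 11.9 CPM in those called higher, 8.84 CPM in those called lower and 1.84 CPM in those not called. Median exonic lengths were 3443, 4568.5 and 2415 bases. Median distances from the LINC start to the nearest protein-coding start were 92146, 98654 and 42649 bases. These are descriptions without a test, and longer or more abundant genes also carry more counts.

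Some LINC RNAs act on the gene next to them, so each was set beside the protein-coding gene with the nearest start site. In 148 pairs both genes were tested. Neither was called in 107 pairs, only the neighbour in 24, only the LINC gene in 15 and both in 2. Of 140 distinct neighbours, 26 (18.6%) were called, 16 higher and 10 lower, beside 23.0% of all protein-coding genes tested. The signs of the fold changes agreed in 69 of the 148 pairs.

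In the 2 pairs called together the directions were opposite. LINC00668 fell while LAMA1, the laminin alpha-1 chain of basement membranes, rose from 90.3 to 124 CPM (log2 fold change 0.46, edgeR adjusted p = 6.25e-10). Their starts are 187848 bases apart. LINC02904 rose while LY6E, a GPI-anchored surface protein gene that starts 21227 bases away on the same strand, fell from 147.7 to 120.6 CPM (log2 fold change -0.29, edgeR adjusted p = 1.04e-07). At 87398 bases from LINC01876, NR4A2, an orphan nuclear receptor gene, rose from 4.75 to 9.22 CPM (log2 fold change 0.96, edgeR adjusted p = 1.09e-06). LINC01876 itself had 4.32 CPM in controls and 4.41 CPM with SOX11 and was not called (log2 fold change 0.04, edgeR adjusted p = 0.887). LINC01876, like NT5E below, was named after its pair's values were seen. NT5E, the 5′-nucleotidase CD73, fell beside LINC02535, from 143 to 115 CPM (log2 fold change -0.32, edgeR adjusted p = 0.00190).

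Starts of 26 LINC genes lay within 5 kb of a protein-coding start, 20 of them divergent, the arrangement of a bidirectional promoter. In the 24 such pairs with both genes tested, the LINC gene was called in 2, LINC00205 and LINC01089, and the neighbour in 4 other pairs, those of ARID2, ZFP36L2, PATZ1 and CELSR1. For comparison, 12.4% of all LINC genes tested, 23.0% of all protein-coding genes tested and 20.0% of all genes tested were called. The signs agreed in 14 of the 24.

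**Figure D4:**
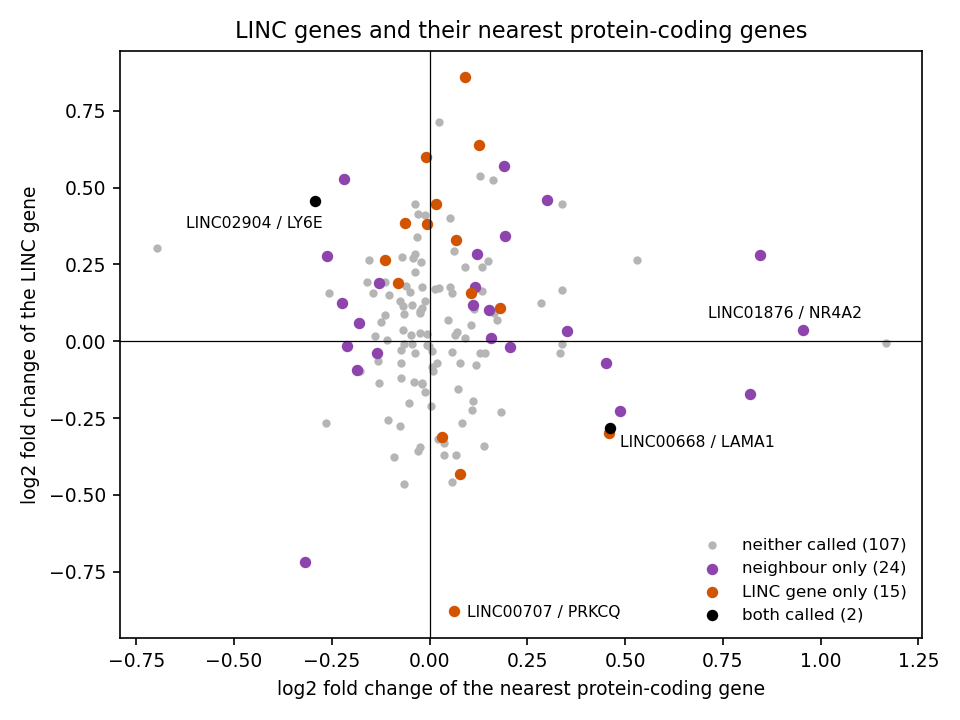
Log2 fold change of each LINC gene (y axis) against that of its nearest protein-coding gene (x axis) for the 148 pairs in which both were tested, coloured by which of them was called. The 2 pairs called together (black) lie in the quadrants of opposite sign, and LINC00707 lies low while PRKCQ sits near 0.

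Other noncoding symbols gave a range of shares. Of genes with symbols ending in -AS1 to -AS9, antisense RNAs, 54 of 463 (11.7%) were called, 39 higher and 15 lower. Of those ending in -DT, divergent transcripts, 17 of 226 (7.52%) were called, 16 higher and 1 lower. Of those ending in HG or in HG and a number, host genes of small RNAs, 16 of 58 (27.6%) were called, 6 higher and 10 lower. The 12.4% of the LINC genes lay between these classes, and the differences were not tested.

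Of 46 long noncoding RNAs with names of their own, 29 were tested and 5 (17.2%) were called, beside 20.0% of all genes tested. H19, an imprinted RNA beside IGF2, had 7, 6, 8 and 8 counts in the controls and 15, 27, 22 and 18 with SOX11. The groups did not overlap, and H19 rose from 0.468 ± 0.108 to 1.26 ± 0.282 CPM (SD, n = 4), a log2 fold change of 1.44 (edgeR adjusted p = 0.000657). All its control counts lay under the filter's minimum count of 10. H19 was therefore tested only through the group where it was high, and its call carries that limit. LUCAT1, a stress-responsive RNA, rose from 64.7 to 78.4 CPM (log2 fold change 0.28, edgeR adjusted p = 0.00565), and TUG1 from 185.7 to 202.1 CPM (log2 fold change 0.12, edgeR adjusted p = 0.00602).

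GAS5 and ZFAS1, which host small nucleolar RNAs in their introns, fell. GAS5 went from 319.8 to 287.4 CPM (log2 fold change -0.15, edgeR adjusted p = 0.000357) and ZFAS1 from 46.4 to 39.9 CPM (log2 fold change -0.22, edgeR adjusted p = 0.00125). GAS5 was the most abundant of the list per length, at 83.6 RPKM, followed by NORAD, which binds PUMILIO proteins, at 45.5. NORAD had a log2 fold change of -0.03 (edgeR adjusted p = 0.551).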

How the data were processed

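Per the labels' protocols, a Maxwell RSC simplyRNA kit gave the RNA and a TruSeq Stranded mRNA kit the poly(A) libraries. Tools named per the submitters' processing notes are cutadapt, FastQC and STAR 2.7.0e, with build GRCh38. Which program counted reads, with which strand setting and gene annotation, is not given in the sources used here. Raw counts were deposited by the authors under Ensembl identifiers, in 1 table of 8 columns and 32066 genes, and 32053 identifiers were matched to a symbol.

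Genes passing filterByExpr (minimum count 10, group given) were TMM-scaled, and edgeR 4.0.16 (R 4.3.3) ran its robust quasi-likelihood F-test on the group term alone. Benjamini-Hochberg adjustment ran over 15665 genes, with calls made below 0.05. CPM is from the deposited counts. Alternatives were DESeq2 1.42.0, limma 3.58.1 voom, other scalings, filters and thresholds, a replicate block, and leaving out each library.

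Coordinates, overlaps and nearest protein-coding start sites come from GENCODE 29 on GRCh38, and reads per kilobase use its merged exons. The LINC genes and all lists were chosen with earlier results of these data known. Named genes are LINC00707 and LINC01322, called genes without overlap of CPM between groups (up to 12 higher and 10 lower), the 6 most abundant per length, genes beside the sum threshold, nearest coding genes, and from the list of other RNAs up to 4 called in each direction and the 2 most abundant per length. No libraries of a group agreed within sampling noise.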

Additional observations from a re-analysis of the deposited data

Results flagged for a closer look

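In groups of 4 libraries, single values far from the other 3 were looked for with Dixon's test in 50 groups, and 4 were found. Chance gives about 1 in 20. LINC02582 had 0.130 CPM in SOX11 replicate 4, where the other SOX11 libraries had 0.590 to 0.668 CPM. LINC02019 had 0.715 CPM in the same library, against 1.00 to 1.05 CPM in the other 3. LINC01089 had 15.5 CPM in SOX11 replicate 3, against 13.1 to 13.3 CPM. LINC00342 had 59.6 CPM in control replicate 4, against 62.9 to 63.1 CPM in the other controls. No cause was tested for any of them.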

How the results depend on the processing

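The count of 25 called LINC genes (15 higher, 10 lower) was 25 with RLE scaling, upper quartile scaling and limma-voom, 22 without a filter and 23 with a stricter one, and 25 and 23 with sum thresholds of 40 and 160. DESeq2 called 15, 9 higher and 6 lower, all of them among the 25. Its adjusted p was NA for LINC02019 and LINC02582. Leaving out 1 library gave 16 to 25 called, 10 to 18 higher and 5 to 9 lower, and a median log2 fold change of 0.0121 to 0.0528, lowest without control replicate 2 and highest without control replicate 1. The low counts were 16 (5 lower) without control replicate 3 and 17 (5 lower) without SOX11 replicate 1, 15 of the 17 also among the 25. Among LINC genes whose exons overlap no other gene, an alternative chosen after seeing the data, as was the use of GENCODE 29 symbols (23 called), 14 of 127 were called (11.02%), 11 higher and 3 lower, with a median log2 fold change of 0.0866. For the 23 called genes other than LINC00707 and LINC01322, 297 alternative values kept call and direction and 67 lost the call with the same direction, the causes not tested. The 4 named genes not called were called in none of 64 alternative values, and LINC03046 changed sign, to -0.08 without SOX11 replicate 4 and -0.0038 without control replicate 3. With the replicate number as a block 24 were called, 23 of them shared. Same-numbered libraries deviated from their group means with correlations of -0.068 to 0.109. These values show no deviation shared by number and cannot tell whether the samples were prepared in pairs. Of the 201 genes tested, 118 had under 400 counts over all libraries.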
